A study of Mus musculus with 16 samples.

Results

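The genes described here encode integrins, laminins and the proteins that join them into basement membranes. They were chosen by name: every measured integrin alpha chain (Itga), integrin beta chain (Itgb) and laminin alpha, beta or gamma chain (Lama, Lamb, Lamc), with the nidogens Nid1 and Nid2, perlecan (Hspg2), agrin (Agrn), dystroglycan (Dag1) and fibronectin (Fn1). Collagens were left out. The rule found 41 of the 16118 measured genes, made up of 16 integrin alpha chains, 8 integrin beta chains, 5 laminin alpha, 3 laminin beta and 3 laminin gamma chains, and 6 nidogens and linkers. A test was run on the 38 members whose mean over all libraries reached 1 CPM (counts-per-million reads), of 13950 genes that did. Itgb6 (mean 0.189 CPM), Itgb7 (0.430 CPM) and Itgax (0.668 CPM) stayed below that level and were not tested.

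Integrins are pairs of an alpha and a beta chain that span the cell membrane and bind matrix outside the cell to the actin cytoskeleton inside it, and the alpha chain largely sets which ligand is bound. Laminins are cross-shaped trimers of an alpha, a beta and a gamma chain that polymerise into the sheet of a basement membrane. Nidogens, perlecan and agrin tie that sheet to type IV collagen and to the cell surface, while dystroglycan and several integrins are its receptors. In the heart a basement membrane surrounds each cardiomyocyte and underlies the endothelium, the endocardium and the epicardium.

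Polyadenylated RNA was sequenced from hearts of 8 mouse embryos at E15.5 (embryonic age in days), each giving a library of the atria and a library of the ventricles, 16 libraries in all. The 4 embryos labelled dKO were Meis1flox/flox; Meis2flox/flox; aMHC tg/wt, that is, both floxed Meis genes (homeodomain transcription factors) with a Cre transgene driven by the alpha-myosin heavy chain promoter of cardiomyocytes. The 4 control embryos were Meis1flox/flox; Meis2flox/flox; aMHC +/+, so they carried the same floxed alleles without the transgene. Presence of Cre and deletion therefore went together, and the other cell types of the chamber were not targeted. The outflow tract had been removed and whole chambers were frozen, so each library mixes all cell types, and fewer cells of a type cannot be told apart from less RNA per cell. Titles open with a number that 4 embryos share (2 control, 2 dKO), 3 embryos share (2 control, 1 dKO) and 1 dKO embryo has alone. That pattern is not the control and dKO pair from each of 4 litters that the protocol gives, so the number was used only as a covariate and to pick the 4 embryos that share it.

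Reads recovered over the 16118 measured genes ranged from 7.88 to 23.0 M per library, and a difference of 3 reads corresponded to 0.110 to 0.312 CPM. Depth was lowest in dKO ventricles (7.88 to 14.3 M reads, against 15.6 to 23.0 M reads in control ventricles), and it was 14.8 to 19.4 M reads in control atria and 14.3 to 19.3 M reads in dKO atria. Meis1 was 40.4 ± 2.61 CPM (SD, n = 4) in control atria and 26.1 ± 3.19 CPM in dKO atria, but 41.5 ± 3.96 CPM in control and 40.9 ± 2.41 CPM in dKO ventricles. Meis2 was 39.2 ± 3.46 CPM in control and 23.4 ± 2.85 CPM in dKO ventricles, but 25.4 ± 2.05 CPM in control and 26.5 ± 1.90 CPM in dKO atria. The counts cover whole genes, and the labels do not name the deleted exons. So the lower level of each gene was seen in 1 chamber, and dKO below stands for the libraries labelled dKO. Summed atrial myocyte markers (5 of 5 measured) were 6768 to 8366 CPM in the atria and 1191 to 1692 CPM in the ventricles. Ventricular myocyte markers (5 of 5) were 243 to 1561 CPM in the atria and 17600 to 21824 CPM in the ventricles, so the chambers matched their labels. Exons of Itga1, Itga4, Itga8, Lama2 and Nid2 overlap those of another annotated gene, and whether counting used the strand is not given in the sources used here, so their levels may include reads of that gene.

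Per length of exon, 1 chain stood above the others in most families. Levels between genes are given here as CPM per kb of the gene's merged exons. Itgb1, the beta chain that pairs with most of the matrix-binding alpha chains, was 182 CPM per kb in control atria and 201 CPM per kb in control ventricles. It made up 81.1% ± 0.414 (SD, n = 4) of the summed integrin beta level in control atria, 80.6% ± 2.05 in dKO atria, 82.6% ± 0.978 in control ventricles and 82.1% ± 1.52 in dKO ventricles. Lamc1, the gamma chain of most laminin trimers, made up 97.1% ± 0.0523 of the gamma chains in control atria and 95.3% ± 0.134 in control ventricles. Lamb1 was the leading beta chain at 49.7 CPM per kb in control atria and 49.8 CPM per kb in control ventricles, ahead of Lamb2 at 28.8 and 24.3 CPM per kb. Fibronectin (Fn1), the interstitial ligand of Itga5 with Itgb1, was the highest of the linkers at 157 CPM per kb in control atria and 77.8 CPM per kb in control ventricles.

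By group mean the leading laminin alpha chain was Lama4, a chain of vascular laminins, but its lead depended on the chamber. In control atria Lama4 made up 40.0% ± 4.64 of the laminin alpha level per kb and Lama5 38.05% ± 3.15, which overlapped. Lama5 was the higher per kb in control atria 1 and 2, and Lama4 in control atria 3 and 4. In control ventricles Lama4 made up 63.3% ± 2.21 and Lama5 22.0% ± 1.20. Lama2, the chain of muscle laminin, followed at 19.5% ± 1.62 in control atria and 13.6% ± 2.38 in control ventricles. Lama1, a chain best known from early embryonic and epithelial basement membranes, was a minor component throughout, at 1.13% ± 0.206 in control atria, 0.590% ± 0.148 in dKO atria, 0.210% ± 0.0244 in control ventricles and 0.174% ± 0.0576 in dKO ventricles.

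**Figure D1:**
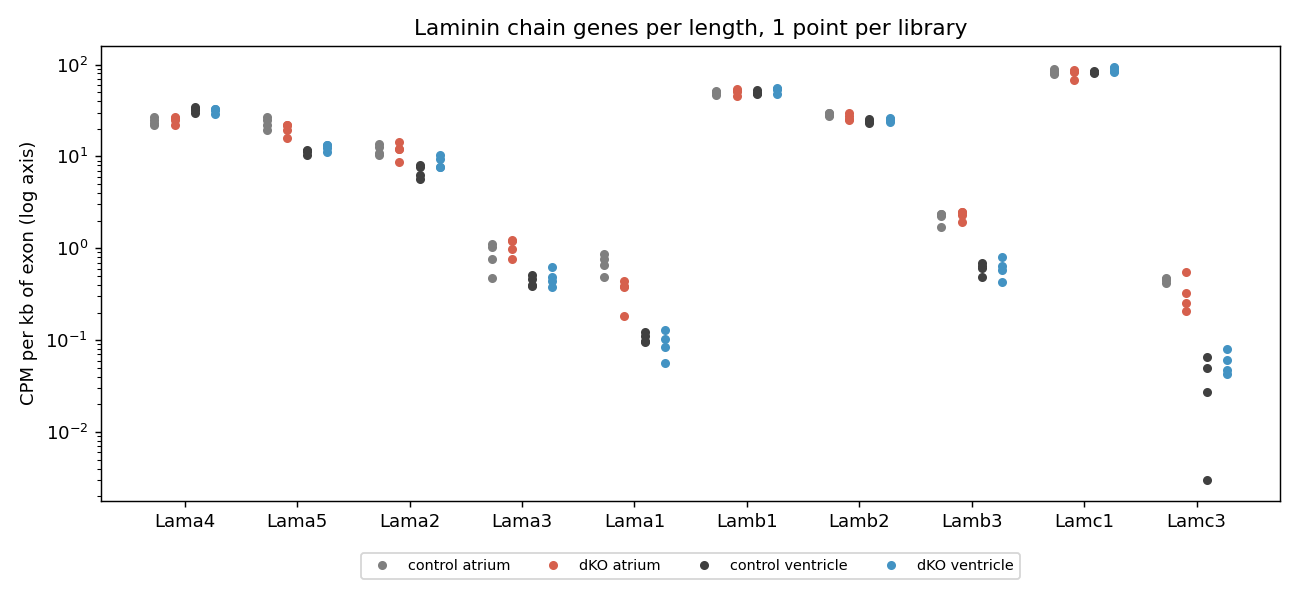
Levels of 10 laminin chain genes in CPM per kb of exon (log axis), 1 point per library, coloured by group. Lamc1 and Lamb1 lead their families. Lama4 leads in the ventricles, and in control atria its points overlap those of Lama5. Lama1, Lamb3 and Lamc3 are lower in the control ventricles than in the control atria, and the lowest Lamc3 point is a control ventricle with 0 reads, drawn at the deposited value of 0.0183 CPM.

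Among integrin alpha chains the leader differed between the chambers. Itga6, the alpha chain of laminin-binding integrins, was 36.4 CPM per kb in control atria and 15.8 CPM per kb in control ventricles. Itga5, the alpha chain of the fibronectin receptor, was 25.6 CPM per kb in control atria and 38.9 CPM per kb in control ventricles. Itga6 made up 38.04% ± 1.16 of the summed integrin alpha level in control atria, against 26.8% ± 0.619 for Itga5. In dKO atria the order per kb was the other way round, with 23.5% ± 1.78 for Itga6 and 28.7% ± 0.440 for Itga5. Undivided by length, Itga6 was still the higher in dKO atria, at 182 ± 26.3 CPM against 121 ± 10.3 CPM for Itga5. Itga5 was at 126 ± 1.57 CPM in control atria, so its share rose without a rise in its level. In control ventricles the shares were 17.3% ± 0.901 for Itga6 and 42.6% ± 1.17 for Itga5.

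The first comparison asked which members differed between dKO and control atria. The laminin receptor chain Itga6 and the laminin chain Lama1 fell, while the integrin chains Itga9, Itgav and Itgb8 and the linker Nid1 rose. These were 6 of the 38 tested members (15 integrin alpha, 6 integrin beta, 5 laminin alpha, 3 laminin beta, 3 laminin gamma, 6 linkers), with an adjusted p under 0.05 in limma on log2(CPM + 1). Of all 13950 genes tested, 1042 were called (7.47%), 563 higher in dKO atria (4.04%) and 479 lower (3.43%). The members' median difference was 0.05 on the log2 scale, beside 0.00 over all genes (-0.0046 before rounding), and 12 members had an unadjusted p under 0.05. Log2 differences below are of log2(CPM + 1), which understates changes of genes near 1 CPM.

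Itga6 (ENSMUSG00000027111, chromosome 2, 71745616 to 71858416, plus strand, GRCm38) had the smallest adjusted p of the members. Its level was 351, 330, 304 and 330 CPM in the control atria and 205, 186, 194 and 144 CPM in the dKO atria. Every dKO atrium was below every control atrium. The dKO atria lay above the control ventricles (137 to 150 CPM) in 3 of 4 libraries and within their range in dKO atrium 4. The log2 difference was -0.86 ± 0.098 (SE; 95% interval -1.07 to -0.64; adjusted p = 3.06e-04), a dKO level 0.551 times that of controls. Among the 4 embryos of the shared title number the difference was -0.84 (adjusted p = 1.03e-04), and without the lowest library, dKO atrium 4, it was -0.75 (adjusted p = 2.80e-05).

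Lama1 (ENSMUSG00000032796, chromosome 17, 67697259 to 67822647, plus strand) is a far less abundant gene. It was measured at 7.39, 8.32, 6.43 and 4.75 CPM in control atria and at 4.21, 3.71, 3.81 and 1.78 CPM in dKO atria. The groups did not overlap, although the highest dKO atrium was close to the lowest control. The log2 difference was -0.84 ± 0.215 (adjusted p = 0.0380). The call was lost in 7 of 18 other settings (adjusted p 0.0608 to 0.116), among them leaving out control 1, 2 or 3 or dKO 2 or 3. The dKO values rest on 35 to 95 reads per library.

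Itga9 (ENSMUSG00000039115, chromosome 9, 118606690 to 118901003, plus strand) encodes an alpha chain that pairs with Itgb1 and binds tenascin C and other matrix ligands. Its control atria had 57.1, 51.6, 56.6 and 52.0 CPM and its dKO atria 80.9, 81.2, 84.4 and 69.3 CPM. The groups did not overlap, and the dKO atria came to the range of the control ventricles (79.5 to 99.3 CPM) in 3 of 4 libraries. The log2 difference was 0.53 ± 0.070 (adjusted p = 9.15e-04), a 1.44-fold higher level, and it was 0.60 (adjusted p = 0.00151) among the embryos of the shared title number.

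Itgav (ENSMUSG00000027087, chromosome 2, 83724397 to 83806916, plus strand) encodes the alpha chain of receptors for RGD ligands such as vitronectin, fibronectin and latent TGF-beta. It was at 71.0, 63.7, 67.0 and 63.7 CPM in control atria and at 94.7, 91.7, 90.9 and 74.6 CPM in dKO atria. The groups did not overlap, and the log2 difference was 0.40 ± 0.077 (adjusted p = 0.00916). It was 0.44 (adjusted p = 0.00614) among the embryos of the shared title number. The calls of Itga6, Itga9 and Itgav held in all 19 refits with other settings. With a fold of at least 1.5 also required, Itga6 and Lama1 stayed called and Itga9 (1.44-fold), Itgav (1.32-fold), Itgb8 and Nid1 did not.

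Itgb8 (ENSMUSG00000025321, chromosome 12, 119158022 to 119238802, minus strand) encodes the beta chain that pairs with Itgav and activates latent TGF-beta. Control atria had 18.7, 17.9, 19.7 and 16.2 CPM and dKO atria 23.0, 30.03, 26.2 and 20.9 CPM. The lowest dKO atrium was just above the highest control atrium. The log2 difference was 0.44 ± 0.109 (adjusted p = 0.0332), and the call was lost in 7 of 19 other settings (adjusted p 0.0517 to 0.0987), among them leaving out control 1, 2 or 4 or dKO 2 or 3.

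Nid1 (ENSMUSG00000005397, chromosome 13, 13437551 to 13512269, plus strand), the nidogen that bridges the laminin gamma 1 chain and type IV collagen, had the smallest called difference. It was at 259, 254, 261 and 227 CPM in control atria and at 301, 314, 296 and 287 CPM in dKO atria. The groups did not overlap, and the log2 difference was 0.26 ± 0.059 (adjusted p = 0.0212). The call was lost in 5 of 19 other settings (adjusted p 0.0521 to 0.0673), among them leaving out control 2 or 4 or dKO 2 or 3. Nid2, the second nidogen, differed by -0.12 (adjusted p = 0.546).

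**Figure D2:**
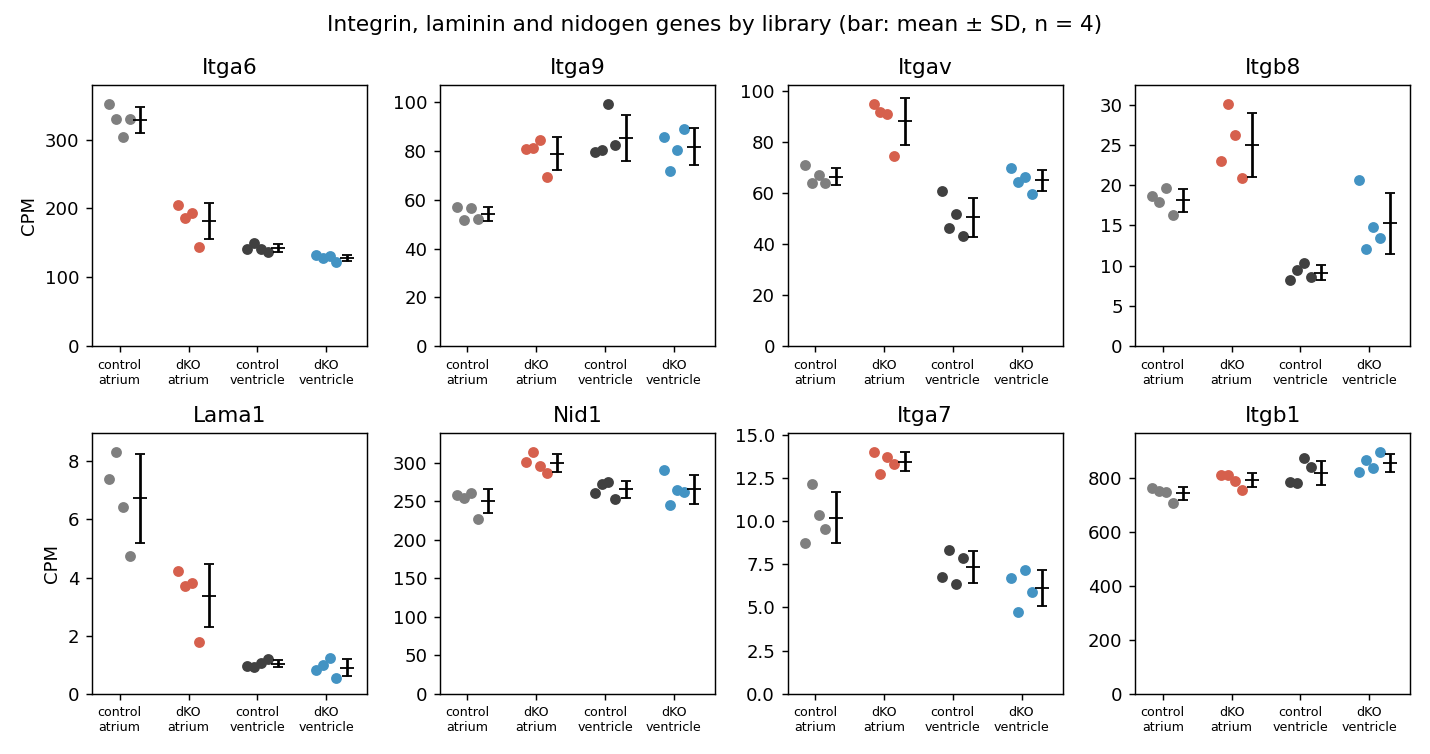
CPM of 8 members in every library (points) by group, with the group mean ± SD (n = 4) beside them and each axis starting at 0. Itga6 and Lama1 are lower in the dKO atria than in the control atria without overlap, Itga9, Itgav, Itgb8 and Nid1 are higher without overlap, and Itgb1 (708 to 765 CPM in control atria, 758 to 813 CPM in dKO atria) overlaps.

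The stretches of 250 bases before a RefSeq transcription start are shown for the genes called higher in dKO atria (GRCm38.p6, 5′ to 3′ on the gene's strand). The genes were picked by that call, and shared control of them was not tested. Capitals mark the only GC box found, GGGCGG on either strand. The windows are chr9:118711442-118711691 on the plus strand for Itga9, chr2:83724147-83724396 on the plus strand for Itgav, chr12:119238277-119238526 on the minus strand for Itgb8 and chr13:13437352-13437601 on the plus strand for Nid1. Starts are those of RefSeq. The Itga9 window lies far inside its gene span, which opens at 118606690, so it precedes an internal start and not the span's 5′ end. The Itga9 letters below therefore do not describe the sequence before that 5′ end. The Itgb8 window lies inside its span near the 5′ end. The Nid1 window reaches into its span, and the Itgav window ends at the base before its span.
Itga9 promoter: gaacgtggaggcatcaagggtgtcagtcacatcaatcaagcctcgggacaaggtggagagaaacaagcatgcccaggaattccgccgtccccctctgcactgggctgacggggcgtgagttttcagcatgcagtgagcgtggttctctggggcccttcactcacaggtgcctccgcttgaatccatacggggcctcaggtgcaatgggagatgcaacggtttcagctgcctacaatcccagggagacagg
Itgav promoter: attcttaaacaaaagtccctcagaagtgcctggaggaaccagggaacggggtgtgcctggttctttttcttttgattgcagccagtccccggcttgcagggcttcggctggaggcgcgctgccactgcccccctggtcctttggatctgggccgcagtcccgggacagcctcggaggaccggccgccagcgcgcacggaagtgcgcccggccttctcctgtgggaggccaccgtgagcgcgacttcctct
Itgb8 promoter: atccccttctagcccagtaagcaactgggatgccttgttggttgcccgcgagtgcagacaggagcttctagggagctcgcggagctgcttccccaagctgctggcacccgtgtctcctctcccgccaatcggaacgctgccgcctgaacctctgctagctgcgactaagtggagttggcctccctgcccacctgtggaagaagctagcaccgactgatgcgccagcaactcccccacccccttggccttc
Nid1 promoter: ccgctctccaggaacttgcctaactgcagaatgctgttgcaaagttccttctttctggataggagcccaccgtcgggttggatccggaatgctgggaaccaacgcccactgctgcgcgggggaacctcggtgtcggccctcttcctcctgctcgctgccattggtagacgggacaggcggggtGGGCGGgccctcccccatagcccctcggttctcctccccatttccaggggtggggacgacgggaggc
The windows had 58.4% (Itga9), 64.4% (Itgav), 62.4% (Itgb8) and 64.4% (Nid1) G or C, against a median of 52.4% over the 32851 promoters in the RefSeq table. None of the 4 held TGACAG, the core letters bound by Meis proteins, or TATAAA, each searched on both strands. TGACAG was in 15.9% of all promoters of this length and in 6 of the 27 members matched (Dag1, Itga11, Itga2b, Itgb5, Itgb6 and Lama2). GGGCGG was in 32.7% of all promoters and in 12 of 27 members, and TATAAA in 12.4% of all and in 0 of 27. The shares of all promoters count each promoter, whereas a member counted if any of its promoters held the letters, so these counts are not alike. These are letter matches in one window per start and do not show binding. Itga6 and Lama1 were not among the 27.

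The other 32 members did not pass the test in atria. All 6 tested integrin beta chains had a positive difference (median 0.22), of which 1 was called. Among the integrin alpha chains 11 of 15 were positive (median 0.35), with 2 called higher and 1 lower. Itga7, a laminin receptor chain of striated muscle, came closest to the threshold. It was at 8.71, 12.2, 10.4 and 9.57 CPM in control atria and at 14.0, 12.7, 13.7 and 13.3 CPM in dKO atria. These groups did not overlap, with a log2 difference of 0.37 and an adjusted p of 0.0523. Itga11 (0.60, adjusted p = 0.0875) and Itgb2 (0.44, adjusted p = 0.151) also had groups that did not overlap. In all, 9 of 38 members had non-overlapping atrial groups, beside 1969 of the 13950 tested genes (14.1%). In ventricles this held for 3 of 38 members, beside 8.11% of the tested genes.

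For the most abundant members the intervals were narrow around 0. The 95% interval of the log2 difference in atria was -0.04 to 0.22 for Itgb1, -0.25 to 0.14 for Lamc1, -0.11 to 0.18 for Lamb1 and -0.13 to 0.22 for Lama4. For the dystroglycan gene Dag1 it was -0.12 to 0.19, for Agrn -0.23 to 0.18 and for Fn1 -0.17 to 0.29. Lama5 differed by -0.23 (-0.50 to 0.04) and Hspg2 by -0.16 (-0.39 to 0.07). A shift of more than 0.29 in the upward direction is outside each of the 7 intervals named first. That bound is the upper end for Fn1, and the other intervals end lower. Shifts within a gene's own interval were not resolved by 4 libraries a group.

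Other cell types' markers also differed between the atrial groups. Smooth muscle and pericyte markers (9 of 9 measured) summed to 798 to 925 CPM in control and 1087 to 1510 CPM in dKO atria, and epicardial markers (7 of 7) to 338 to 408 and 418 to 502 CPM. Fibroblast markers (8 of 8) overlapped at 4999 to 6714 and 5726 to 9744 CPM, and endothelial markers (10 of 10) at 1195 to 1233 and 1149 to 1484 CPM. General myocyte markers (8 of 8) summed to 17581 to 20209 CPM in control and 14453 to 16436 CPM in dKO atria, without overlap. Atrial myocyte markers (5 of 5) overlapped, at 6768 to 8366 CPM in control and 7441 to 8209 CPM in dKO atria. Each of these lists had its defining markers above 0, and the part of these cell types in the atrial differences of Itga6, Itga9, Itgav, Itgb8, Lama1 and Nid1 was not tested.

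Several integrin chains belong to blood cells, and their levels were set beside blood cell markers. Itgal and Itgam pair with Itgb2 on leukocytes, and Itga4 is found on leukocytes and in the epicardium. Itga4 was at 4.12, 4.48, 5.21 and 5.13 CPM in control atria and at 4.16, 8.24, 7.59 and 8.48 CPM in dKO atria. Itgal was at 6.28, 3.77, 5.21 and 2.94 CPM in control and 3.89, 8.77, 7.59 and 4.93 CPM in dKO atria. The groups overlapped for both, and neither was called (Itga4 0.47, adjusted p = 0.182; Itgal 0.38, adjusted p = 0.444). Macrophage and leukocyte markers (11 of 11 measured) summed to 102 to 124 CPM in control atria, to 106 CPM in dKO atrium 1 and to 172, 170.3 and 172 CPM in dKO atria 2 to 4. Among dKO atria, library 1 was the lowest for these markers and also for Itga4, Itgal and Itgam, whereas for Itgb2 the lowest was dKO atrium 4 (2.68 CPM, against 3.29, 4.23 and 3.29 CPM in dKO atria 1 to 3). The part of leukocyte content in these levels was not tested.

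**Figure D3:**
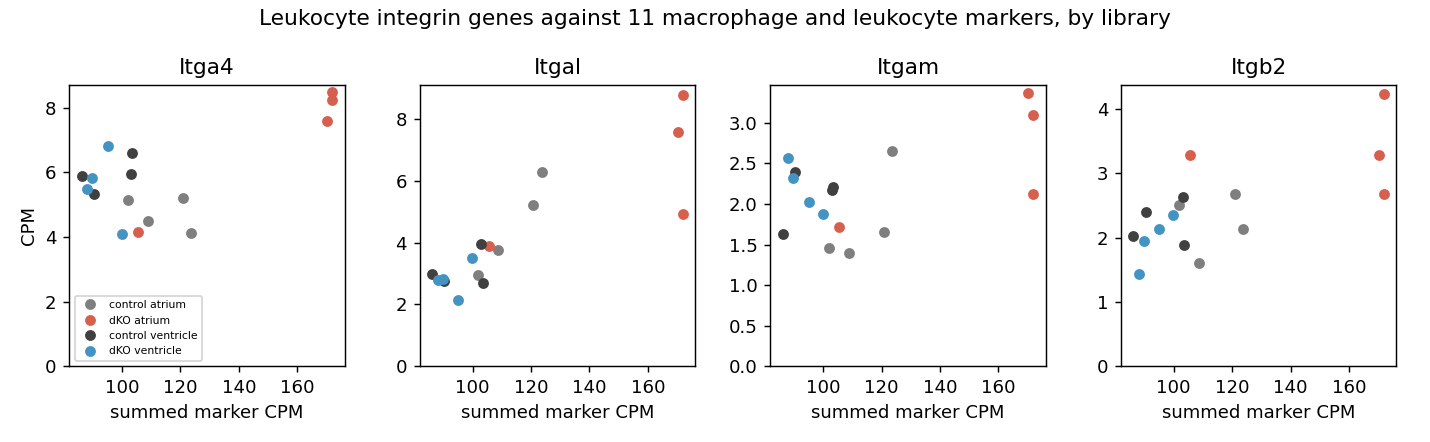
CPM of Itga4, Itgal, Itgam and Itgb2 (vertical) against the summed CPM of 11 macrophage and leukocyte markers (horizontal) in each of the 16 libraries, coloured by group. In 3 dKO atria the markers reach 170.3 to 172 CPM, while the other 13 libraries lie between 86.2 and 124 CPM.

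Itga2b, the alpha chain of the platelet fibrinogen receptor, ranged more widely. It was at 5.64, 4.04, 3.64 and 3.95 CPM in control atria and at 10.4, 7.96, 6.398 and 2.83 CPM in dKO atria, with overlap (0.48, adjusted p = 0.393). The platelet and megakaryocyte markers measured (4 of the 7 listed, with Ppbp under 1 CPM) summed to 5.75 to 9.09 CPM in control and 9.77 to 13.0 CPM in dKO atria, without overlap. Itgb3, its beta partner, was at 7.16 ± 0.994 CPM in control and 9.35 ± 1.5 CPM in dKO atria (0.34, adjusted p = 0.165). The part of platelet content was not tested.

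In the ventricles the dKO libraries differed from the controls in 1 of 38 members, the integrin beta chain Itgb8, which rose. Over all genes 279 of 13950 were called (2.0%), 138 higher (0.989%) and 141 lower (1.01%). The members' median difference was 0.00 (-0.0048 before rounding) beside -0.02 over all genes. With 7 members at an unadjusted p under 0.05 in limma, edgeR called 1 member and DESeq2 called 2.

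Itgb8 was at 8.19, 9.39, 10.3 and 8.62 CPM in control ventricles and at 20.7, 12.1, 14.7 and 13.5 CPM in dKO ventricles. The groups did not overlap, and dKO ventricle 1 was well above the other three. The log2 difference was 0.66 ± 0.145 (95% interval 0.34 to 0.97; adjusted p = 0.0383). The call was lost in 11 of 19 other settings (adjusted p 0.0528 to 0.304), among them leaving out any of the 4 control ventricles or dKO 1, 3 or 4. Among the embryos of the shared title number the difference was 0.56 (adjusted p = 0.304). Itgb8 was thus higher in all 8 dKO libraries than in any control library of the same chamber.

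Its partner Itgav did not pass the test in ventricles. It was at 60.6, 46.3, 51.8 and 43.2 CPM in control ventricles and at 69.6, 64.3, 66.0 and 59.7 CPM in dKO ventricles. The groups overlapped through control ventricle 1 and dKO ventricle 4, with a log2 difference of 0.37 and an adjusted p of 0.0665. The effects of the 2 chambers on Itgav differed by -0.03 (95% interval -0.28 to 0.21; adjusted p = 0.958), and those on Itgb8 by 0.22 (-0.16 to 0.61; adjusted p = 0.686).

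Itga6 was at 141, 150, 141 and 137 CPM in control ventricles and at 132, 128, 131 and 123 CPM in dKO ventricles. These groups did not overlap, but the log2 difference of -0.15 was not called (adjusted p = 0.154). Nid2 likewise did not overlap (178, 184, 178 and 179 CPM against 160, 162, 165 and 173 CPM) and was not called (-0.12, adjusted p = 0.187). Lama2 was at 113 ± 18.1 CPM in control and 143 ± 22.9 CPM in dKO ventricles (0.34, adjusted p = 0.235). Marker sums overlapped between control and dKO ventricles for fibroblasts (3554 to 4099 and 3288 to 4063 CPM), endothelium (1075 to 1116 and 1039 to 1107 CPM) and smooth muscle and pericytes (1645 to 2037 and 1889 to 2093 CPM). Ventricular myocyte markers did not overlap, at 19869 to 21824 CPM in control and 17600 to 19161 CPM in dKO ventricles. Atrial myocyte markers did not overlap either, at 1191 to 1336 CPM in control and 1520 to 1692 CPM in dKO ventricles, and Itgb8 was itself higher in control atria than in control ventricles. The part of both marker lists in the Itgb8 difference was not tested.

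Whether the dKO effect differed between chambers was tested directly as the ventricular minus the atrial difference, with the embryo as a random block. The test called 3 of 38 members, Itga6, Itga9 and Itga7, all integrin alpha chains. Over all genes 368 were called (2.64%), 183 in the positive direction (1.31%) and 185 in the negative (1.33%). The members' median was -0.06 beside -0.01 over all genes.

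For Itga6 the difference of effects was 0.71 ± 0.104 (95% interval 0.49 to 0.93; adjusted p = 5.05e-04), with -0.86 in atria and -0.15 in ventricles. For Itga9 it was -0.59 ± 0.108 (-0.82 to -0.36; adjusted p = 0.00380), with 0.53 in atria and -0.06 in ventricles. Both calls held in all 21 other settings tried. For Itga7 it was -0.61 ± 0.160 (adjusted p = 0.0498), with 0.37 in atria and -0.23 in ventricles, neither called on its own. The Itga7 call was lost in 16 of 21 settings (adjusted p 0.0539 to 0.366). Itga7 in ventricles was at 6.79, 8.34, 6.36 and 7.89 CPM in controls and at 6.73, 4.73, 7.15 and 5.89 CPM in dKO, which overlapped.

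Differences of effect that missed the threshold were -0.26 for Nid1 (adjusted p = 0.0822), 0.73 for Lama1 (adjusted p = 0.183) and 0.38 for Lama5 (adjusted p = 0.212). In ventricles Lama1 was near its limit of measurement, at 0.92 to 1.19 CPM in controls and 0.54 to 1.24 CPM in dKO, or 8 to 32 reads per library. So for Lama1 a difference between the chambers' effects was not resolved at this depth.

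**Figure D4:**
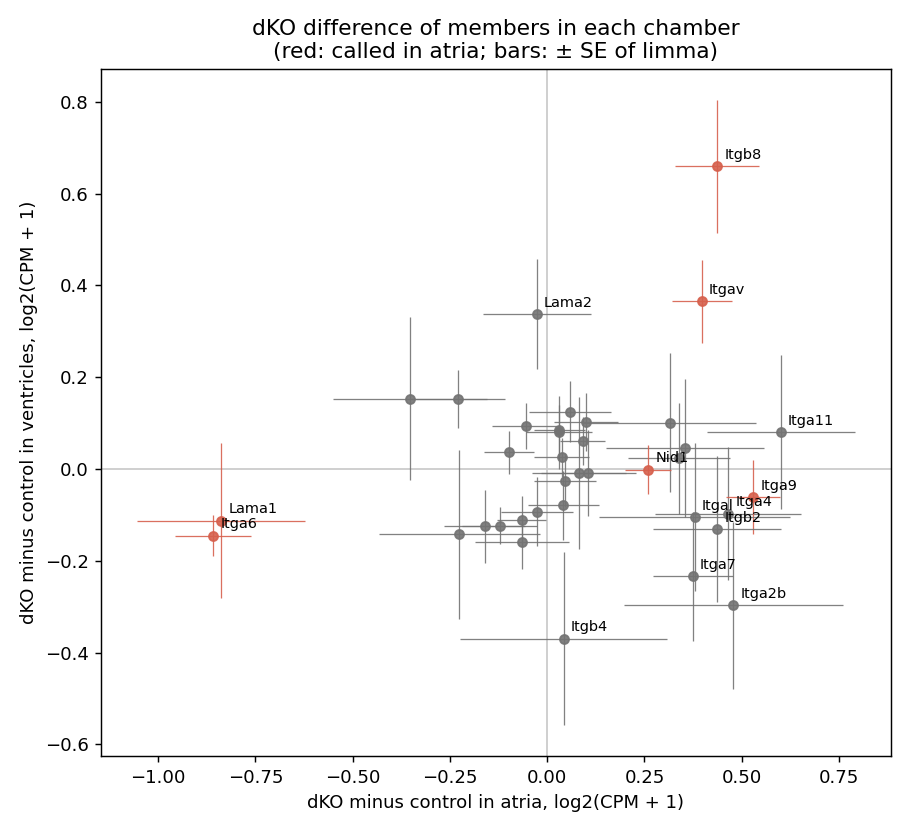
Difference of dKO from control in atria (horizontal) and in ventricles (vertical) for tested members, on the log2(CPM + 1) scale, with bars of ± SE from limma and the 6 members called in atria in red. Itga6 (-0.86 and -0.15) and Itga9 (0.53 and -0.06) lie near the horizontal axis, and Itgav (0.40 and 0.37) and Itgb8 (0.44 and 0.66) lie in the upper right.

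A further comparison set the ventricles against the atria of control embryos. Of the 38 tested members 24 were called, 9 higher in ventricles and 15 higher in atria. Among integrin alpha chains 4 were higher and 5 lower in ventricles, among integrin beta chains 2 and 1. All 5 laminin alpha chains were called, Lama4 higher and the other 4 lower in ventricles. Over all genes 6543 were called (46.9%), 3678 higher in ventricles (26.4%) and 2865 lower (20.5%). The members' median difference was -0.15 beside 0.03 over all genes.

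Chains higher in atria were led by Itga6, at 329 ± 19.3 CPM in control atria and 142 ± 5.56 CPM in control ventricles (-1.20 ± 0.074; adjusted p = 2.43e-10). Fn1 was at 2009, 1684, 1971 and 1697 CPM in atria and at 961, 893, 942 and 838 CPM in ventricles (-1.01 ± 0.084; adjusted p = 1.36e-08). Lama5, a widespread chain of epithelial and endothelial basement membranes, was at 303, 285, 220 and 250.5 CPM in atria and at 117, 129, 134 and 131 CPM in ventricles (-1.04 ± 0.101; adjusted p = 1.36e-07). None of these 3 overlapped, and each ventricle was below each atrium by a wide gap. Lama1 had 6.72 ± 1.52 CPM in atria and 1.03 ± 0.122 CPM in ventricles (-1.90 ± 0.184, adjusted p = 1.18e-07). This was the largest difference of the 24 on the log2(CPM + 1) scale, which understates changes of genes near 1 CPM. In proportion Lamc3 differed more, at 2.76 CPM in atria and 0.221 CPM in ventricles. Itgb8 was at 18.1 ± 1.45 CPM in atria and 9.13 ± 0.933 CPM in ventricles (-0.92 ± 0.129; adjusted p = 1.15e-05).

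Minor laminin chains were also higher in atria, among them Lama3 and Lamb3, which occur in laminins of epithelia. Lamb3 was at 15.6, 14.9, 11.3 and 15.52 CPM in atria and at 4.03, 4.55, 4.26 and 3.24 CPM in ventricles (-1.61 ± 0.136; adjusted p = 1.79e-08). Every ventricle was below every atrium for Lamb3. Lama3 was lower in ventricles, at 9.02 ± 3.04 and 4.74 ± 0.630 CPM, with overlapping groups (-0.75 ± 0.191; adjusted p = 0.00330). Lamc3 was at 2.76 ± 0.137 CPM in atria, and its ventricular libraries held 6, 7, 3 and 0 reads, at or near the limit of 3 reads (-1.63 ± 0.178; adjusted p = 5.17e-07).

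The 4 integrin alpha chains higher in ventricles were Itga1, Itga2, Itga5 and Itga9. Itga1 and Itga2, which are collagen receptor chains as are Itga10 and Itga11, were at 54.0 ± 3.15 and 6.87 ± 1.15 CPM in atria and at 101 ± 7.48 and 14.3 ± 1.33 CPM in ventricles. Their differences were 0.89 ± 0.096 (adjusted p = 5.24e-07) and 0.96 ± 0.0995 (adjusted p = 2.73e-07), while Itga10 was lower in ventricles (-0.69) and Itga11 was not called (-0.41). Itga5 was at 128, 125, 126 and 126 CPM in atria and at 186, 184, 199 and 199 CPM in ventricles (0.60 ± 0.058; adjusted p = 1.24e-07), while its ligand Fn1 was higher in atria. Itga9 was higher in ventricles by 0.64 ± 0.077 (adjusted p = 1.73e-06).

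The other 12 calls were smaller or less certain. Higher in ventricles were Itgb3 (0.51), Hspg2 (0.47), Lama4 (0.41) and Itgb1 (0.14), and lower were Lama2 (-0.78), Itga10 (-0.69), Itga7 (-0.42), Itgav (-0.40), Itga3 (-0.30), Nid2 (-0.27) and Lamb2 (-0.24), with Lama3 given above. Their adjusted p ranged from 7.67e-05 for Lama4 to 0.0276 for Itgb1. The Itgb1 call was lost in 6 of its other settings and its sign turned under quantile normalization (-0.10, adjusted p = 0.114), so its direction depends on the scaling. The calls of Itga10 (in 2 settings) and Itga7 (in 1) were also lost in part, and the other 21 were kept in every refit that could be run. With a fold of at least 1.5 also required, 15 of the 24 calls stayed, and Itgb3, Hspg2, Lama4, Itgb1, Itga7, Itgav, Itga3, Nid2 and Lamb2 did not.

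The 14 members not called between control chambers included the laminin chains Lamb1 (0.00, 95% interval -0.12 to 0.13) and Lamc1 (-0.01, -0.15 to 0.14). The integrin beta chain Itgb5 (0.01, -0.14 to 0.16) was also among them. Nid1 (0.09), Dag1 (0.08) and Agrn (0.06) were not called either. Itga11 was closest to the threshold (-0.41, adjusted p = 0.0510), and Itga4 (0.28) and Itga8 (-0.06) were not called. The blood cell chains Itgal, Itgam, Itgb2 and Itga2b and the epithelial chain Itgb4 were low, between 1.34 and 6.28 CPM in the control libraries. Epicardial markers summed to 338 to 408 CPM in control atria and 105 to 145 CPM in control ventricles, smooth muscle and pericyte markers to 798 to 925 and 1645 to 2037 CPM, and the part of cell composition in the chamber differences was not tested.

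**Figure D5:**
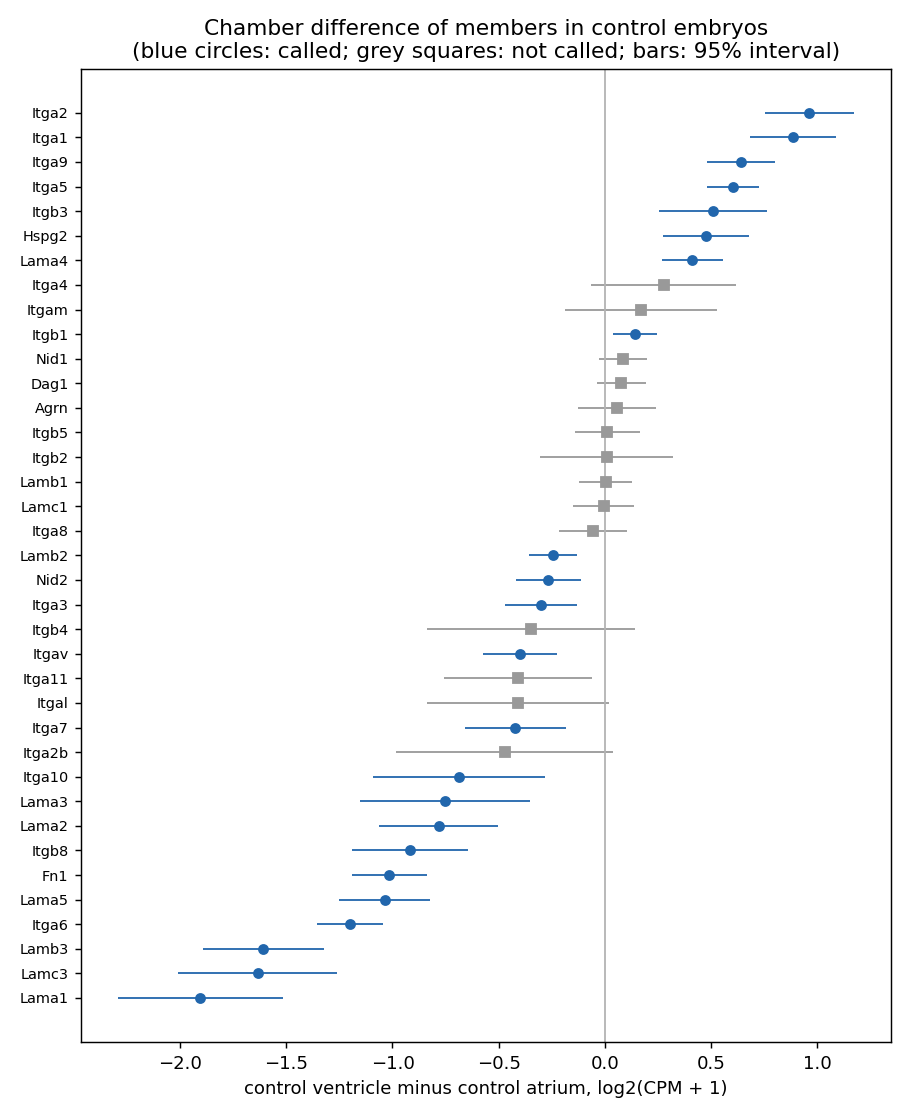
Control ventricle minus control atrium for tested members on the log2(CPM + 1) scale, ordered by size, with 95% intervals from limma (blue circles called, grey squares not called). Itga2 (0.96) is at the upper end and Lama1 (-1.90) at the lower end, while Lamb1, Lamc1 and Itgb5 sit at 0.

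Itga6 in dKO atria stood between the chambers. Its mean was 329 CPM in control atria, 182 ± 26.3 CPM in dKO atria, 142 CPM in control ventricles and 128 ± 4.29 CPM in dKO ventricles. The dKO atria and control ventricles overlapped through dKO atrium 4 (144 CPM), and the other neighbours in this order did not overlap. For Itga9 the order was control atria (54.3 CPM), dKO atria (79.0 ± 6.64 CPM), dKO ventricles (81.8 ± 7.58 CPM) and control ventricles (85.4 ± 9.29 CPM), with all but the first overlapping. The dKO and the chamber comparisons share the control atria, so the sides they take are not independent of each other.

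Genes that work with these members were taken from 7 lists of adaptors, partners, receptors and matrix proteins. Of all 13950 genes tested in atria 7.47% were called (4.04% higher, 3.43% lower). No list here or in the next paragraph was tested against that share. In atria 1 of 21 integrin adaptors rose and 1 fell: Parvb, a parvin that links integrins to actin (0.31; adjusted p = 0.00375), and the tensin Tns1 (-0.37; adjusted p = 0.00615). Of 13 integrin regulators and partners 2 rose, Rap1a (0.31) and Dab2 (0.32), and 1 fell. The one that fell was Itgb1bp2, or melusin, a muscle protein that binds the Itgb1 tail, from 59.0 to 34.3 CPM (-0.76 ± 0.092; adjusted p = 4.63e-04). Of 14 genes of the dystroglycan complex 2 rose, Dtnb (0.86; adjusted p = 9.63e-05) and Sgcb (0.34), and 1 fell, the caveolin Cav3 (-0.57).

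Of 16 genes that glycosylate dystroglycan 1 rose (Gmppb, 0.49) and 1 fell (Tmem5, -0.44). Of 8 other laminin receptors 2 rose, the proteoglycans Sdc2 (0.34) and Gpc1 (0.26). Of 17 other integrin ligands 3 rose, Thbs1 (0.48), Thbs2 (0.42) and Cyr61 (0.49). Of 16 genes of basement membrane assembly and remodelling 6 rose and 2 fell, with Frem2 falling from 147 to 96.6 CPM (-0.61; adjusted p = 4.63e-04) and Pxdn (0.40) and Fbln1 (0.39) rising. The list medians in atria ran from 0.04 to 0.18, beside 0.00 over all genes. The smooth muscle, epicardial and general myocyte marker sums given above also differed between control and dKO atria, and their part in these lists was not tested.

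In ventricles 1 gene of the 7 lists was called by limma, Gpc1 (0.25; adjusted p = 0.0381). Over all genes tested 2.0% were called in ventricles and 2.64% for the difference of effects between chambers. No list was tested against these shares. A chamber difference of the dKO effect was called for Itgb1bp2 (0.82; adjusted p = 6.91e-04), Frem2 (0.81; adjusted p = 5.30e-05), Tmem5 (0.35) and Vcl (0.30) in the positive direction. It was also called for Dtnb (-0.70; adjusted p = 0.0168), Loxl2 (-0.56), Pxdn (-0.56; adjusted p = 5.52e-04) and Parvb (-0.36) in the negative direction.

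Between control chambers 46.9% of all tested genes were called, 26.4% higher and 20.5% lower in ventricles, and no list was tested against these shares. The list of basement membrane assembly and remodelling had 10 of 16 genes lower and 4 higher in ventricles (median -0.37). The Fraser complex genes Frem2 and Fras1, whose products anchor epithelial basement membranes, were lower by -1.71 and -1.95, and Smoc2 by -1.75. Of the integrin adaptors 9 of 21 were higher in ventricles, led by the talin Tln2 (0.88) and Lims1 (0.64), and 4 lower, led by Lims2 (-1.52). Of the other integrin ligands 4 of 17 were higher and 4 lower, and the integrin alpha 8 ligand Npnt was at 77.7 CPM in atria and 19.1 CPM in ventricles (-1.96), beside no called difference of Itga8 (-0.06).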

How the data were processed

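RNA of 16 libraries (8 embryos, 4 libraries in each of 4 groups) was measured. The authors deposited CPM values per gene. The submitters' processing notes name cutadapt, RSEM 1.3.1 and GRCm38, and the annotation, the strand setting and how library totals were scaled were not given in the sources used here. Within a library every value was a whole number of reads plus a constant, times 1 step (100% of values within 0.001 of a whole number), and these reads were recovered. The genes and lists were chosen with earlier results of these data known.

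Groups came from the genotype and tissue labels. Genes averaging 1 CPM or more over the libraries were tested by limma 3.58.1 with a mean-variance trend (R 4.3.3) on log2(CPM + 1), dKO against control within each chamber. Chamber and difference contrasts used all 16 libraries, with the embryo as a random block (correlation 0.1082), since each embryo gave both chambers. P-values were adjusted over all tested genes (Benjamini-Hochberg) and called under 0.05. edgeR 4.0.16 and DESeq2 1.42.0 on the recovered reads were alternatives, next to other pseudocounts, filters and scalings, title number, and leaving out each embryo. Scripts were tested on simulated data.

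Named were all called members (full statistics for the 12 smallest adjusted p where more were called), the highest of each family per kb, and up to 3 called genes of each list. Gene spans and exon lengths are from GENCODE M21, matched by identifier for 16103 of 16118 genes. Embryos are the replicates. The values of 1 member, counted in all totals, are not reported here.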

Additional observations from a re-analysis of the deposited data

Results flagged for a closer look

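For 5 of 152 gene and group combinations 1 library stood far from the other 3 of its group by Dixon's criterion, where chance gives about 1 in 20. Itga9 was at 99.3 CPM in control ventricle 3, above the others at 79.5 to 82.4 CPM. Lamb1 was at 473 CPM in dKO ventricle 2, below the others at 534 to 546 CPM. Lamb3 was at 11.3 CPM in control atrium 3, below the others at 14.9 to 15.6 CPM. Lamc1 was at 555 CPM in dKO atrium 4, below the others at 693 to 716 CPM. Nid2 was at 184 CPM in control ventricle 2, above the others at 178 to 179 CPM.

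The dKO effect differed between chambers by limma for Itga6 (0.71), Itga7 (-0.61) and Itga9 (-0.59), each as ventricular minus atrial effect on the log2 scale. The Itga7 call was lost in 16 of 21 other settings.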

How the results depend on the processing

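In atria 6 members were called, against 2 with a fold of at least 1.5, 3 without the mean-variance trend, and 3 to 7 when each embryo was left out (3 without dKO 2 or dKO 3). edgeR called 6 and DESeq2 8. Over all genes the atrial calls were 1042 in the main fit, 856 without the trend, 1031 by edgeR and 1552 by DESeq2. No count over all genes was made at a fold of at least 1.5. In ventricles 1 was called, against 0 with no filter, 0 without the trend, 0 with title number as a covariate, 0 among the embryos of the shared title number, 2 by DESeq2, and 0 to 1 when each embryo was left out. Between control chambers 24 were called, 15 with a fold of at least 1.5, and Itgb1 turned to -0.10 under quantile normalization. The difference of effects gave 2 to 4 calls in every setting run. With no replicate block it called 2, and with the replicate block as a fixed term 3; the chamber contrast called 24 and 26. Fixed-block edgeR and DESeq2 were added after seeing the data and called 24 and 23 members between chambers and 2 each for the difference.

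Over all genes the ventricular calls went from 279 to 159 without the trend, to 79 within the shared title number and to 469 by DESeq2. Calls of the difference went from 368 to 226 within the shared title number, 241 without control 4 and 238 without dKO 3. No scaling moved the median of all genes by over 0.1. Depth was lowest in dKO ventricles, and low members such as Lama1 and Lamc3 rest on few reads there.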

Other observations

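Within groups, some libraries were often lowest for these genes. Of the 38 tested members, dKO ventricle 2, the library of lowest depth, held the lowest dKO ventricular value for 23 (60.5%), and over all 13950 tested genes it did so for 29.95%. dKO atrium 4 was lowest of the dKO atria for 22 members (57.9%) and for 32.2% of all genes. Control atrium 1 was highest of the control atria for 19 members, against 23.5% of all genes. These shares were noticed in the data, and members are not independent of each other, so they are descriptions with no test.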
